A study of Bos taurus with 47 samples.

Results

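Messenger RNA of 3 genes of fat cells and fat synthesis was followed in the Longissimus muscle of cattle at 3 stages of life. The genes were chosen by Ensembl cattle identifier from a rule that names 5: LEP (ENSBTAG00000014911), FABP4 (ENSBTAG00000037526) and FASN (ENSBTAG00000015980) are described, while ADIPOQ (ENSBTAG00000019813) and SCD (ENSBTAG00000045728) are not analysed here. Each count table lists 27607 identifiers, and 23108 of these were seen at least once over the 47 libraries. The symbols came with the rule and were not checked against an annotation, since the reference gene table used here matched 0 of the identifiers. For the same reason the muscle label was not checked against markers of muscle fibres or of other cell types, and other genes of the fat pathways are not described by name.

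The animals descended from crossbred Angus heifers (F0) held to a low gain (LG) of 0.28 or a moderate gain (MG) of 0.79 kg per day while pregnant up to day 84, and kept as 1 herd afterwards. Their F1 heifer calves gave Longissimus thoracis at birth, before suckling, in 8 LG and 8 MG libraries. F1 heifers, reared alike whatever the treatment of the dam, gave the same muscle at slaughter. By its labels this stage has 8 libraries of LG and 7 of MG, where the protocol text has 7 and 8. F2 fetuses of day 84 gave Longissimus dorsi in 8 libraries for each gain group of the granddam, and their sex is not given in the sources used here. Total counts ran from 13308433 to 32547565 per library, so that a count of 3, the limit that a count of 0 allows, lay between 0.0949 (fetal LG 11) and 0.259 (birth LG 14) on the scaled counts-per-million (CPM) scale used here. Libraries are called by gain group and the number in their label, and whether each number is a separate animal is not stated, so a p-value here is set against the spread among libraries, which may be partly technical.

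Fat cells within muscle, the marbling of beef, arise from mesenchymal precursors and store triglyceride made from fatty acids that are taken up from blood or built in the cell. LEP encodes leptin, a hormone that fat cells release in proportion to their lipid store. FABP4 encodes the fatty acid carrier of fat cells, a late marker of their differentiation that is also made in macrophages and capillary endothelium. FASN encodes fatty acid synthase, which builds palmitate from acetyl and malonyl groups. It is abundant in fat but is also made in many dividing and developing tissues. In whole muscle, fewer cells of a type and less RNA per cell cannot be told apart.

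The hormone and the carrier were found almost only at slaughter, whereas the synthase was highest in the fetus. LEP averaged 0.801 ± 0.554 CPM at slaughter (SD, n = 15), and FABP4 averaged 8.25 ± 7.45 CPM. FASN fell step by step, from a mean of 230.2 ± 63.2 CPM (SD) in 16 fetal libraries. It averaged 125 ± 38.8 CPM in 16 birth libraries and 83.9 ± 36.8 CPM in 15 slaughter libraries (SD). CPM are taken over the library total after scaling by the trimmed mean of M-values (TMM). They are not per length, and levels are compared only within a gene.

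**Figure D1:**
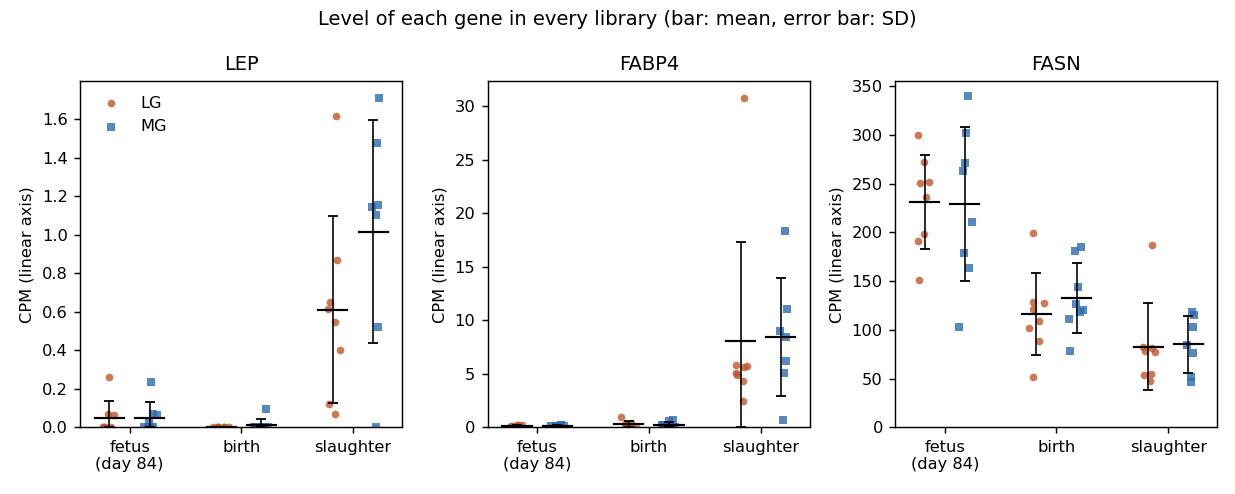
CPM of LEP, FABP4 and FASN (vertical axes, linear, a scale for each gene) in every library of fetuses, newborn calves and heifers at slaughter, with circles for LG and squares for MG. Horizontal bars are group means and error bars 1 SD, stopped at 0: LEP and FABP4 lie near 0 before slaughter, and FASN is highest in fetuses.

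LEP, the leptin gene, was close to absent before slaughter. The 16 birth libraries held 2 counts in all, both in MG 17, with 15 libraries at 0. The 16 fetal libraries held 22 counts, with 9 libraries at 0 and the highest, LG 36, at 8 counts (0.261 CPM). At slaughter 14 of 15 libraries had a count, with a median of 11 and a highest of 44 counts in MG 47, and MG 23 was at 0. Of the 15 slaughter libraries, 13 lay above every birth library in scaled CPM, the exceptions being LG 14 and MG 23. LG 41 did so only through scaling, with 2 counts (0.12 CPM) against the same 2 counts in birth MG 17 (0.0955 CPM). Its level was below the 0.18 CPM that 3 counts make in that library. By summed counts the level was 104 times as high at slaughter as at birth, with a counting interval of 28.4 to 866 (95%, exact, counting error only). The fold was 58.5 with edgeR and 16.8 with limma voom, the latter below that interval, so its size depended on the method. Against fetuses the ratio of summed counts was 16.6 (10.7 to 27.1). The edgeR adjusted p was 1.5e-08 against birth and 1.94e-07 against fetuses. LEP passed the filter on low counts only through its slaughter libraries and so had to differ. These p-values therefore add no support.

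FABP4, the carrier, was likewise highest at slaughter, with more counts. It had 0 to 7 counts in fetal libraries (median 3.5; 0 to 0.228 CPM) and 0 to 14 at birth (median 3; 0 to 0.949 CPM). At slaughter it ran from 0.728 CPM in MG 23 (10 counts) through a median of 5.74 to 30.8 in LG 36 (400 counts). Every slaughter library lay above every fetal library, and 14 of 15 lay above every birth library, the exception being MG 23. How many of all genes separate the stages as fully was not counted, for this or the other members. By edgeR, 38.4% of 14960 genes were called higher at slaughter than in fetuses, and 37% of 13369 higher than at birth. The log2 fold change of slaughter was 4.93 against birth (SE 0.46, edgeR adjusted p = 6.31e-11) and 6.04 against fetuses (SE 0.45, edgeR adjusted p = 4.76e-14). FABP4 too passed the filter only through its slaughter counts, so its p-values add no support.

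FASN, the synthase, had ample counts at every stage, from 637 to 9636 per library. In fetuses it ran from 103 CPM in MG 20 through a median of 244 to 340 in MG 15. Newborn muscle ran from 52.1 in LG 28 through 121 to 199 in LG 05, and 10 of 16 fetal libraries lay above all of these. Slaughter muscle ran from 46.4 in MG 23 through 78.4 to 187 in LG 36, within the newborn range except for 3 libraries below it. From fetus to birth it fell by 0.86 in log2 terms (SE 0.15, adjusted p = 5.1e-06 by edgeR), a fold of 1.81. From birth to slaughter it fell by 0.55 (SE 0.18, edgeR adjusted p = 0.00941), a fold of 1.46. The last step passed in MG libraries alone (log2 fold change -0.68, edgeR adjusted p = 0.0117) and not in LG libraries alone (-0.46, edgeR adjusted p = 0.159), and the test of that difference is given with the gain comparison.

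These tests ran over all genes with edgeR's quasi-likelihood test. Of the members, 3 of 3 passed between slaughter and birth, where 70.2% of 13369 genes did, with 37% higher and 33.3% lower at slaughter. Between slaughter and fetus 3 of 3 passed, against 83.4% of 14960 genes, with 38.4% higher and 45% lower. Between birth and fetus only FASN had enough counts to be tested, and it passed, as did 81.9% of 14820 genes (37.9% higher and 44.0% lower at birth). LEP and FABP4 entered these tests only through their slaughter counts and so had to differ, and their values are a description. Without a filter on low counts, FABP4 had a log2 fold change of 1.09 for birth against fetus (SE 0.50, adjusted p = 0.0544 by edgeR) and LEP one of -2.35 (SE 0.84, adjusted p = 0.0143 by edgeR). The FABP4 difference thus missed the threshold after adjustment, with a 95% interval of 0.075 to 2.11, and 6 of 16 birth libraries lay above every fetal library. The LEP difference rests on 22 against 2 counts. Without slaughter LG 36, LEP had too few counts to be tested between slaughter and either earlier stage, and FABP4 and FASN passed in both.

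The size of the FASN fall from the fetus depended on the scaling. Fetal libraries had TMM factors of 1.19 to 1.93, against 0.72 to 1.08 at birth and 0.73 to 0.94 at slaughter. With total counts alone the FASN mean was 342 ± 80.6 CPM over 16 fetal libraries (SD). It was 106 ± 41.5 over 16 birth libraries and 66.7 ± 32.1 over 15 slaughter libraries. The log2 fold change of birth against fetus then was -1.69 in place of -0.86, and that of slaughter against fetus -2.36 in place of -1.39. The median of all genes moved with it, from -0.12 to -1.0 and from -0.16 to -1.15. Relative to that median, FASN was lower at birth than in fetuses by a log2 difference of -0.73 with TMM and -0.69 without, and at slaughter by -1.23 and -1.21. LEP and FABP4 rose from fetus to slaughter by 2.95 and 5.09 with total counts alone, in place of 3.89 and 6.04. Stage goes together with the table of deposit, and in fetuses also with generation and muscle name, so that these cannot be told apart.

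No difference by gain of the dam or granddam passed in LEP, FABP4 and FASN at slaughter or in FASN at birth and in fetuses. LEP and FABP4 did not pass the filter on low counts within the earlier stages. At slaughter, LEP ran from 0.0715 CPM in LG 14 through a median of 0.582 to 1.62 in LG 36 over the LG libraries. In MG libraries LEP ran from 0 in MG 23 through 1.15 to 1.71 in MG 47, so the groups overlapped over nearly all of their range. The means were 0.612 ± 0.487 and 1.02 ± 0.581 CPM (SD, n = 8 and 7), with a log2 fold change of LG against MG of -0.76 (95% interval -1.96 to 0.43, edgeR adjusted p = 1.00). That interval allows anything from a ratio of 0.257 to 1.35.

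FABP4 at slaughter had medians of 5.38 CPM in LG, with a range of 2.43 to 30.8, and 8.41 in MG, with a range of 0.728 to 18.4. The log2 fold change was -0.04 (95% interval -1.21 to 1.13, edgeR adjusted p = 1.00). LG 36 alone held up the LG mean: without it the log2 fold change was -0.80, still with an edgeR adjusted p of 1.00, and that of FASN moved from -0.03 to -0.33. LEP no longer had enough counts to be tested without LG 36. The same held without LG 29, which had 0.870 CPM of LEP and ranked 7, so LEP lay at the limit of the filter.

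FASN could be compared at all 3 stages. The fetal LG libraries had a mean of 232 ± 48.3 CPM and the fetal MG libraries one of 229 ± 78.9 (SD, 8 libraries each). The log2 fold change of LG against MG was 0.06 (95% interval -0.32 to 0.44, edgeR adjusted p = 1.00). At birth the means were 116 ± 42.0 and 133 ± 36 CPM (n = 8 each), a log2 fold change of -0.20 (-0.65 to 0.25, edgeR adjusted p = 0.985). At slaughter they were 82.8 ± 44.5 and 85.2 ± 29.1 CPM (n = 8 and 7), a log2 fold change of -0.03 (-0.63 to 0.57, edgeR adjusted p = 1.00). A ratio of 0.803 to 1.35 in fetuses, 0.636 to 1.19 at birth and 0.648 to 1.49 at slaughter is within these intervals.

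**Figure D2:**
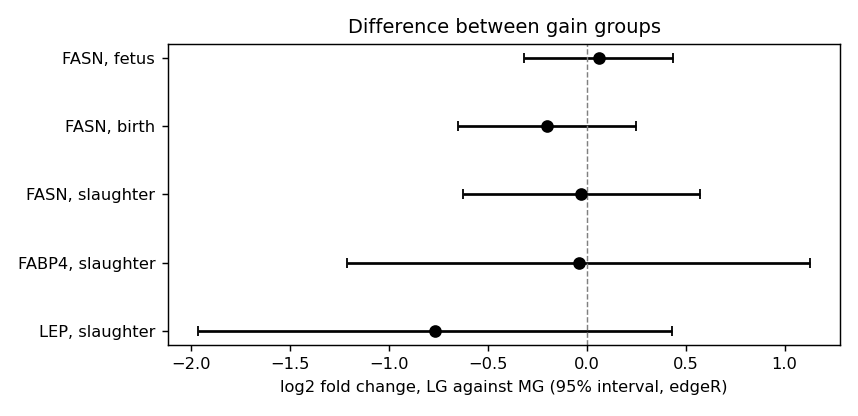
Log2 fold change of LG against MG (horizontal axis) with its 95% interval, derived from edgeR's F statistic, for the members that could be tested at each stage. Every interval includes 0, and that of LEP at slaughter is the widest, from -1.96 to 0.43.

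Across all genes the gain comparison called 0.0% of 14200 genes in fetuses, 0.0% of 12485 at birth and 0.0% of 12577 at slaughter with edgeR, and DESeq2 and limma voom called 0 as well. An edgeR model over all 47 libraries, with 15264 genes tested, called 2 genes in fetuses, both higher in LG and neither of them a member, and 0 at birth and at slaughter. With edgeR, 102, 515 and 230 genes had p under 0.05 before adjustment. Whether the LG-minus-MG effect itself changed between stages was tested over 15264 genes, of which 0.0% passed in each of the 3 contrasts (468, 449 and 341 at an unadjusted p under 0.05) and 0 with limma voom. For FASN the effect at slaughter minus that at birth was a log2 difference of 0.16 (SE 0.35, adjusted p = 1.00 by edgeR). At birth minus fetus it was -0.21 (SE 0.34, edgeR adjusted p = 1.00), and at slaughter minus fetus -0.06 (SE 0.35, edgeR adjusted p = 1.00).

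At slaughter the 3 genes rose and fell together from library to library. LG 36 was the highest of 15 libraries for FABP4 and FASN and ranked 2 for LEP. MG 45 ranked 2, 2 and 3 for FABP4, FASN and LEP, and MG 47 ranked 3, 3 and 1. At the other end MG 23 was the lowest for all 3 genes and LG 14 the next for all 3. Both gain groups thus held libraries at the top and at the bottom.

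Over the 15 slaughter libraries FABP4 and LEP had a Pearson r of 0.84 on the log2(CPM + 0.5) scale (permutation p = 1e-05, the smallest that 100000 resamples can give; adjusted p = 7e-05; two-sided) and a Spearman rho of 0.79 (permutation p = 0.00069, adjusted p = 0.00161). FABP4 and FASN had an r of 0.89 (permutation p = 2e-05, adjusted p = 7e-05) and a rho of 0.91 (permutation p = 5e-05, adjusted p = 0.00035). LEP and FASN had an r of 0.80 (permutation p = 0.0003, adjusted p = 0.0007) and a rho of 0.86 (permutation p = 0.00012, adjusted p = 0.00042). These were 3 of 7 pairs examined over the stages, and adjustment is over the 7. Without the 2 libraries farthest from the median of the first gene, r was 0.80, 0.86 and 0.71. With the LG and MG means removed it was 0.88, 0.89 and 0.82 over the 15 libraries pooled. No r was computed in LG alone or in MG alone.

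**Figure D3:**
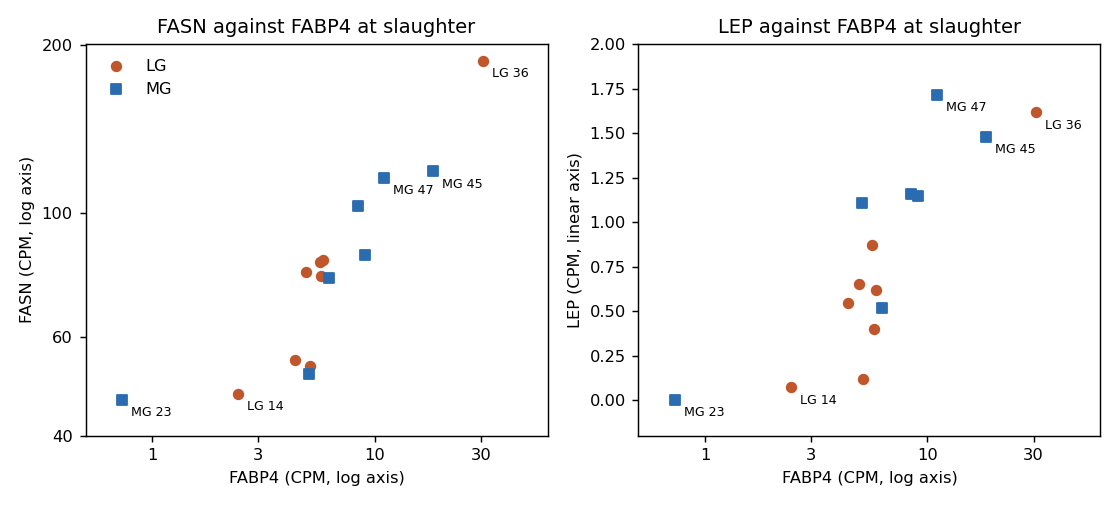
FASN (left, log axis) and LEP (right, linear axis) against FABP4 (log axis), in CPM, for 15 libraries at slaughter, circles for LG and squares for MG. Points climb from MG 23, at 0.728 CPM of FABP4, to LG 36, at 30.8.

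Few genes followed a member as closely as the other members did. Of 12576 other genes tested at slaughter, 3 had a higher r with FABP4 than FASN, and 7 a higher one than LEP. The median r of all genes with FABP4 was -0.02, and 15 genes exceeded 0.8. With FASN, 1 gene had a higher r than FABP4 and 14 a higher one than LEP. These ranks describe the 15 libraries, and genes are not independent replicates.

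**Figure D4:**
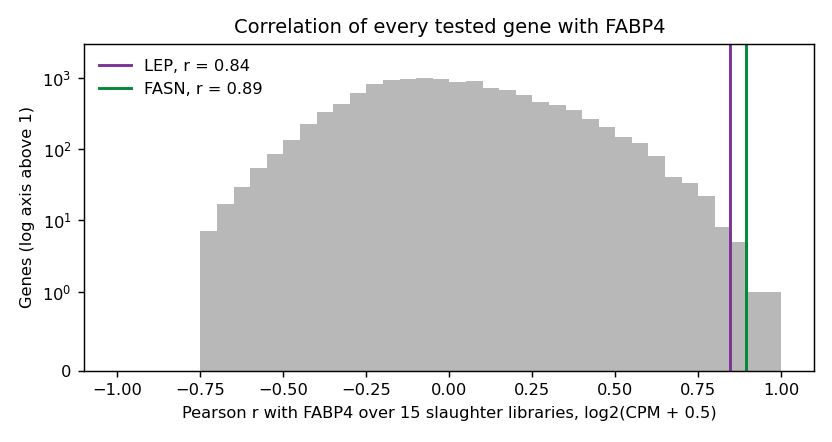
Number of genes (vertical axis, log above 1) by their Pearson r with FABP4 over 15 slaughter libraries on the log2(CPM + 0.5) scale, for 12576 genes. LEP at 0.84 and FASN at 0.89 stand in the far right tail.

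The genes differed in how widely they swung. FABP4 spanned 42.3-fold from the lowest to the highest slaughter library, whereas FASN spanned 4.04-fold. The SD within gain groups was 1.11 on the log2(CPM + 0.5) scale for FABP4, 0.67 for LEP and 0.58 for FASN, against a median of 0.302 over the 12577 genes tested. Only 100 genes had a wider spread than FABP4, while 880 had one wider than LEP and 1464 one wider than FASN. Counting error was a small part of this for FABP4, whose coefficient of variation was 90.3% where counting alone gives 9.01%. For FASN these were 43.9% and 2.83%, and for LEP, with its low counts, 69.2% and 28.9%.

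A straight line through the slaughter CPM put FASN at 45.3 (SE 4.82) where FABP4 would be 0, with a slope of 4.68 CPM of FASN per CPM of FABP4 (SE 0.44). Without LG 36 the intercept was 44.0 (SE 6.50) and the slope 4.90 (SE 0.83). MG 23, with nearly no FABP4 and no count of LEP, still had 46.4 CPM of FASN. The ratio of FASN to FABP4 ran from 6.08 in LG 36 to 63.7 in MG 23, with a median of 12.3, so FASN did not scale in proportion to FABP4.

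A pair of identifiers came closest to the mean of the 3 members' standardised levels at slaughter. ENSBTAG00000007969 had an r of 0.96 over 15 libraries and ENSBTAG00000019379 one of 0.94, and without LG 36 and MG 23 these were 0.95 and 0.93. Their levels ran from 0.582 to 16.2 CPM and from 0.364 to 14.9 CPM. Of 12574 genes compared, 13 had an r over 0.8. The files do not pair these identifiers with names.

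Before slaughter no such relation could be seen, at counts that hardly allow one. At birth FABP4 and FASN had an r of 0.01 over 16 libraries (permutation p = 0.977, adjusted p = 0.977) and a rho of -0.08 (permutation p = 0.781, adjusted p = 0.781), with 0 to 14 counts of FABP4 per library. LEP was left out there, having counts in 1 library. In fetuses FABP4 and LEP had an r of 0.42 (permutation p = 0.0941, adjusted p = 0.165), FABP4 and FASN one of -0.27 (permutation p = 0.307, adjusted p = 0.409) and LEP and FASN one of 0.25 (permutation p = 0.351, adjusted p = 0.409). The matching rho were 0.46, -0.19 and 0.38 (adjusted p = 0.135, 0.545 and 0.207). Whether the relation differs between stages was not tested.

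Before slaughter, genes were ranked by their r with FASN alone, since LEP and FABP4 did not pass the filter. In fetuses 967 of 14199 genes had an r over 0.8 with FASN, led by ENSBTAG00000037456 (0.97) and ENSBTAG00000000710 (0.97), which had 0.94 each without MG 20 and LG 41. At birth 42 of 12484 genes did, led by ENSBTAG00000017894 (0.90) and ENSBTAG00000011811 (0.89), which had 0.78 each without LG 28 and LG 05. FASN was not among the most variable genes in fetuses, with an SD of 0.46 against a median of 0.51 over all genes. At birth its SD of 0.48 exceeded that of 84.9% of genes.

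Library make-up moved with FASN in fetuses. There FASN was higher where the 10 most abundant genes took a larger share of counts, with a rho of 0.77 (permutation p = 0.0006, adjusted p = 0.006) and an r of 0.64 (permutation p = 0.00623, adjusted p = 0.0623) over 16 libraries. Without MG 23 and MG 45 r was 0.62. At birth the sign was opposite, with an r of -0.49 (permutation p = 0.0615, adjusted p = 0.308) and a rho of -0.46 (permutation p = 0.0756, adjusted p = 0.378). At slaughter r with this share was -0.12 for FASN, -0.30 for FABP4 and -0.36 for LEP, and r with total counts was 0.21, 0.14 and 0.20, none with an adjusted p under 0.05. In all, 10 such relations were examined, chosen after the values were seen. The part of library make-up in the levels of FASN was not tested.

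**Figure D5:**
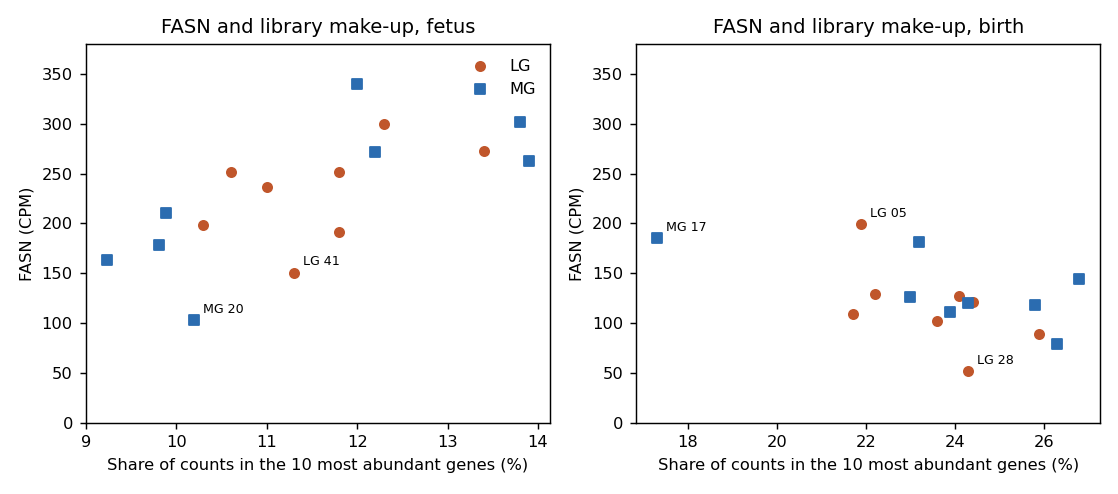
FASN in CPM (vertical axis) against the percentage of a library's counts taken by its 10 most abundant genes (horizontal axis), for fetal (left) and birth (right) libraries, circles for LG and squares for MG. Fetal points climb to the right, rho = 0.77, and birth MG 17 stands apart at 17.3%.

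Birth MG 17, whose counts were spread over the most genes of its stage, held the only LEP counts at birth, 14 of the 66 FABP4 counts and 185.5 CPM of FASN. Without it FASN differed between birth and fetus by -0.90 on the log2 scale (edgeR adjusted p = 3.15e-06) and between slaughter and birth by -0.54 (edgeR adjusted p = 0.0113).

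The 15 numbers of the slaughter libraries also occur among the fetal libraries, though the labels do not say what a number marks. Over these 15 numbers, FABP4 at slaughter and in the fetus had an r of 0.58 (permutation p = 0.0217, adjusted p = 0.065 over 3 genes) and a rho of 0.51 (permutation p = 0.0539, adjusted p = 0.0939). Without LG 36 and MG 23 r was 0.25, so the relation rested on those numbers. LEP had an r of 0.49 (permutation p = 0.0595, adjusted p = 0.0893) and a rho of 0.50 (permutation p = 0.0626, adjusted p = 0.0939), with 0 to 8 fetal counts. Without MG 23 and LG 14 its r was 0.46. For FASN the r was -0.36 (permutation p = 0.191, adjusted p = 0.191) and the rho -0.27 (permutation p = 0.336, adjusted p = 0.336), and without LG 36 and MG 23 r was -0.36.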

How the data were processed

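Muscle RNA was sequenced as polyA-selected, non-directional libraries of paired 150 bp reads, per the labels' protocols. The 3 tables, 1 for each stage, hold raw gene counts as deposited by the authors. The submitters' processing notes name STAR 2.7.3a, FastQC 0.11.8, edgeR 3.24.3 and MultiQC 1.9. No source used here gives the build, the annotation or the read counter. The kit does not mark strand, so overlapping genes on opposite strands share reads. The header of the slaughter table lacks an identifier cell, so its names were read as starting at column 2, the first that holds counts.

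The main test was edgeR's robust quasi-likelihood test (version 4.0.16, R 4.3.3) after filterByExpr and TMM scaling, with Benjamini-Hochberg adjustment over all genes and a threshold of 0.05. LG and MG were compared within a stage, stages through the mean of their gain groups, and the interaction over 47 libraries. CPM for display use TMM over all 47. Correlations use a pseudocount of 0.5 and 100000 two-sided permutations. Alternatives were DESeq2 1.42.0, limma 3.58.1 voom, other scalings, no filter, 1 gain group, the shared numbers as a block and leaving out libraries. Those with total counts alone, and those that leave out a library from a stage comparison or a correlation, were chosen after seeing the data. Libraries of a group were compared in 161 pairs, with a chi-square of at least 23.2 per degree of freedom, so none was merged. The edgeR, DESeq2 and limma steps were also run on simulated counts. That simulation gave all genes the same spread and changed only genes that passed the filter. It therefore does not show how these tests behave on LEP or FABP4.

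All 3 members with counts are named. Beside them, identifiers were named by their r with the mean of the members' standardised levels at a stage, over the members that passed the filter there. The pathway and marker lists planned by symbol were not run, as 0 identifiers could be matched to a symbol. The members and lists were chosen with earlier results of these data known. No sequence is shown, as the tables used here hold none.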

Additional observations from a re-analysis of the deposited data

Results flagged for a closer look

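Of 17 groups of values (a gene in the 7 or 8 libraries of a gain group and stage), 6 held a library far from the others. The rule was the gap to the next value as a share of the range (Dixon's test). Its chance rate of about 1 in 20 assumes normally spread values, so it is no yardstick for these CPM. Where all other libraries are at 0, as for LEP in birth MG, a library with any count must be flagged. At slaughter LG 36 stood apart in the LG group for FABP4, with 30.8 CPM, and for FASN, with 187.2 CPM. At birth LG 14 stood apart for FABP4, with 0.949 CPM from 11 counts. The LEP values of 0.0955 CPM in birth MG 17, 0.261 CPM in fetal LG 36 and 0.236 CPM in fetal MG 39 rest on 2, 8 and 5 counts, in groups where most libraries were at or near 0.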

How the results depend on the processing

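The number of members or pairs past the threshold was the same or within 1.5 times in 59 of 63 comparisons under other tools, scalings, filters and groupings. The exceptions were slaughter against birth in LG libraries alone, where 1 of 2 tested members passed, slaughter against fetus in MG libraries alone, where the 1 member tested passed, birth against fetus without a filter, where 2 of 3 passed, and slaughter with fetus by number with gain means removed, where 1 of 3 passed (FABP4, r 0.59, permutation adjusted p = 0.0485). In the first pair fewer libraries and members were tested. In birth against fetus without a filter, 3 members were tested in place of 1, and LEP was the one that passed beside FASN. For slaughter with fetus by number the cause was not tested. Signs turned only in values that did not pass: with limma voom, the LEP effect of gain was -0.47 at slaughter minus birth and 0.0043 at birth minus fetus, and FABP4 with FASN at birth had an r of -0.0089 with a pseudocount of 0.1 and -0.16 without MG 17. Leaving out each library in turn, done for the gain comparisons and the correlations within a stage, changed no call, with ranges for LG against MG of -0.80 to 0.26 (FABP4, slaughter), -0.33 to 0.065 (FASN, slaughter) and -0.028 to 0.11 (FASN, fetus), and of -0.16 to 0.10 for r of FABP4 with FASN at birth. The 3 correlations at slaughter stayed between 0.76 and 0.92. Stage comparisons were refitted without only 2 chosen libraries each, and the relations by number were not refitted so. Without slaughter LG 36, LEP could not be tested and 2 members passed against birth and against fetus, in place of 3. Libraries sharing a number deviated together by an r over 0.1 in 2 of 6 pairs for slaughter and birth. For birth and fetus it was 3 of 7, and for slaughter and fetus 7 of 15. They correlated best with their own number in 4, 1 and 2 of these pairs. For slaughter and birth that is 4 of 6, so the main test may ignore a pairing there. The main tests took no pairs, as the labels do not say what a number marks. With the number as a replicate block 3, 1 and 3 members passed, as without it, FASN had -0.77, -0.96 and -1.41 on the log2 scale, and 7146, 10587 and 12447 genes were called, against 6477, 10336 and 12399 over the same libraries without the block. Counts of LEP and, before slaughter, of FABP4 limit what could be compared: LEP passed the filter in no stage comparison of 1 gain group.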

Other observations

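The fetal and slaughter libraries labelled LG 36 both had the highest FABP4 of their stage, a match singled out after the values were seen. Fetal LG 36 had the most LEP and FABP4 counts of the 16 fetal libraries, 8 and 7 (0.261 and 0.228 CPM). Fetal LG 11 and MG 15 were close, with 6 FABP4 counts each. Slaughter LG 36 had 30.8 CPM of FABP4 and ranked 2 for LEP, behind MG 47. At the low end, 3 fetal libraries had 0 counts of both genes: MG 23, LG 02 and MG 31. At slaughter these numbers ranked 15, 13 and 11 of 15 for FABP4, all below its median of 5.74 CPM. For LEP they ranked 15, 10 and 6. MG 23 had 0 counts of LEP and 10 of FABP4 at slaughter, LG 02 had 7 and 56, and MG 31 had 15 and 69. Fetal LG 36 had 199 CPM of FASN, below the fetal median of 244. These counts are too few for a firm order among fetuses.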
